A study of Mus musculus with 11 samples.

Results

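H3K4me3, trimethylated lysine 4 of histone H3, was compared between Wdr5 and p53 double knockout (DKO) cells and wild-type (WT) cells as lists of enriched regions (peaks) in day 2 embryoid bodies, with 1 CUT&RUN library per genotype. The comparison took every H3K4me3 peak of both genotypes on chromosomes 1 to 19, X and Y: 6418 in DKO and 9836 in WT, together 16254 of the 19707 peaks in the 11 lists of the series. Each peak was put in a class by whether it overlapped a peak of the other list by at least 1 base: shared, DKO without WT, or WT without DKO. Measured heights were not used to assign classes, but only peaks that passed the authors' q threshold of 0.01 are in the lists. Height therefore bears on the classes through calling, and a peak that is not called is not shown to be unmarked.

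The series profiled WDR5, P53 and H3K4me3 in WT, Wdr5 knockout (KO) and DKO embryoid bodies, which are aggregates of differentiating mouse embryonic stem cells. DKO, KO and WT cells all had GFP knocked in at Rx as a reporter, and all were differentiated by the SFEBq method, which favours anterior neural and eye tissue, in GMEM with 5% KSR. Doxycycline was taken away on day 0 in every genotype, 2% matrigel was added on day 1, and each CUT&RUN took 2 M cells and 2 µg of antibody. The sources used here do not give the deleted parts of Wdr5 and p53, the number of clones, or what doxycycline controlled.

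H3K4me3 lies over the start of genes that are transcribed or poised, and it is richest where CpG islands overlap a promoter. It is written by the SET1 and MLL methyltransferase complexes, in which WDR5 is a scaffold that joins the catalytic subunit to RBBP5, ASH2L and DPY30. P53 is a DNA-binding tumour suppressor that restrains the growth and survival of stressed stem cells.

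The promoters below show a pair of genes from each class. Babam1, of the BRCA1-A complex, had the highest DKO peak at an annotated start site among genes marked in both libraries, and Eif5, a translation initiation factor, was the highest shared gene of its list in WT. Nanog, a pluripotency factor, and H3c13, a replication-dependent histone H3 gene, were the highest genes of their lists marked in DKO without WT. Emc7, a subunit of the endoplasmic reticulum membrane protein complex, was the highest gene marked in WT without DKO, and Dhcr7, the enzyme of the last step of cholesterol synthesis, was the highest of its list in that class. Each sequence runs from 250 bases before to 50 bases after the start site, 5′ to 3′ on the gene's strand, from RefSeq on GRCm38.p6. Capitals mark the motifs searched on both strands: the CCAAT box, the TATA box in its form TATAAA, the SP factor site GGGCGG, the ETS factor site CCGGAAG, the E-box CACGTG, and GCGCATG, which is part of the NRF1 motif.
Babam1 (chr8:71396605-71396904, + strand): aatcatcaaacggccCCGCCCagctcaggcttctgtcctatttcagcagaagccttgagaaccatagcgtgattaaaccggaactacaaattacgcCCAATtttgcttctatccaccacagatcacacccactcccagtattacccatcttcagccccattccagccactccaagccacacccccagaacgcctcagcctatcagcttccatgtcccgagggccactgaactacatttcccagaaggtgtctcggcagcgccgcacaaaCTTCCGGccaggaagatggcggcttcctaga
Eif5 (chr12:111537851-111538150, + strand): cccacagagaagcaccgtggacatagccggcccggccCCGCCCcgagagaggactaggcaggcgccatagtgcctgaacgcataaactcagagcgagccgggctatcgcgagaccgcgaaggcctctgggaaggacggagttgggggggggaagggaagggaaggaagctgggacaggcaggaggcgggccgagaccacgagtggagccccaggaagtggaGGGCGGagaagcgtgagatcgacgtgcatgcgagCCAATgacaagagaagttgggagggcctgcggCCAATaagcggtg
Nanog (chr6:122707239-122707538, + strand): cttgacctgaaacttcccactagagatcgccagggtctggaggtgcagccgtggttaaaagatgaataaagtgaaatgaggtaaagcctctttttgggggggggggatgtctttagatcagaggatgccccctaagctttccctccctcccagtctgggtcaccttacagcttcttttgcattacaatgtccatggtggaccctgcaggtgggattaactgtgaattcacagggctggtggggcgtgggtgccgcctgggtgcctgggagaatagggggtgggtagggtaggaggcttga
H3c13 (chr3:96268404-96268703, + strand): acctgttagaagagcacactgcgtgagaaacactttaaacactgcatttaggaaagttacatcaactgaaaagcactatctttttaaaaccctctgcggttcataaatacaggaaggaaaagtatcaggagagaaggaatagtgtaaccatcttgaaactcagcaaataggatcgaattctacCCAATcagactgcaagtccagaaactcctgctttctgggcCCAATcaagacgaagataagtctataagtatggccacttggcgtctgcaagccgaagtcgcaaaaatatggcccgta
Emc7 (chr2:112454775-112455074, + strand): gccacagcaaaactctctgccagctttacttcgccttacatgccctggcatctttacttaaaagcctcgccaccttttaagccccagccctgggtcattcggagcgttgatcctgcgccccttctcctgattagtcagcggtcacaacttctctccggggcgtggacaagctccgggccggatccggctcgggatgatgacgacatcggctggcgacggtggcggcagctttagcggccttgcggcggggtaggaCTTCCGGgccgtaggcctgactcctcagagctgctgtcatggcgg
Dhcr7 (chr7:143822917-143823216, + strand): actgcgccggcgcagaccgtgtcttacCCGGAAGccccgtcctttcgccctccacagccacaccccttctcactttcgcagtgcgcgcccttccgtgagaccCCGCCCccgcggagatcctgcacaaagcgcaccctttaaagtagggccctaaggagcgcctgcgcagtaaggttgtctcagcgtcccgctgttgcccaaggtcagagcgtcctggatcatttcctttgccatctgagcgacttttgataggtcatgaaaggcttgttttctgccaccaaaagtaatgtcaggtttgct
At Babam1 the DKO peak (chr8:71396899-71397282) covered the end of the printed window and the bases after it, and at Eif5 the DKO peak (chr12:111537502-111537874) reached into the window from upstream. The Nanog peak in DKO (chr6:122708163-122708442) lay inside the gene, downstream of the start site, and the H3c13 peak (chr3:96269133-96269424) lay over the end of that short gene. At Emc7 the WT peak (chr2:112455042-112455678) began just after the start site and ran into the gene. At Dhcr7 the WT peak (chr7:143822401-143822819) lay upstream, 43 bases from an end of its neighbour Nadsyn1.

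The libraries held 43.2 M fragments in DKO and 34.2 M in WT. The median fold enrichment, which is the authors' ratio of the fragments piled up at a summit to those expected around it, was 3.88 in DKO and 4.42 in WT. The median peak width was 418 bases in DKO and 520 in WT. DKO thus had more fragments and fewer, narrower peaks. Enrichment over background differed between the libraries as a whole, its part in the differences below was not tested, and fold enrichments of the libraries are given side by side without being scaled to each other. A difference between genotypes has no replicate check here, so no p-value is given, and the Wilson 95% intervals of shares cover counting error only.

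Most DKO peaks fell on WT peaks, but many WT peaks had no DKO peak. Of the 6418 DKO peaks, 5012 overlapped a WT peak (78.1%, interval 77.1 to 79.1) and 1406 did not (21.9%). Of the 9836 WT peaks, 4837 were overlapped by a DKO peak (49.2%, interval 48.2 to 50.2) and 4999 were not (50.8%). These shares depend on the lengths of the lists. With the highest 6418 peaks of each list, 63.5% of DKO peaks and 60.6% of WT peaks were overlapped. Counted by genes, a protein-coding gene was called marked when a peak lay within 1 kb of either end of its span. The DKO library marked 4999 genes and the WT library 7762. Of the WT-marked genes 4638 were also marked in DKO (59.8%, interval 58.7 to 60.8) and 3124 were not (40.2%), while the 4638 made up 92.8% of the DKO-marked genes. The remaining 361 DKO-marked genes were 2.56% of the 14125 genes unmarked in WT, and with lists of equal length 993 genes were marked in DKO without WT. Below, a gene without a DKO or WT peak is one with none inside this window: at 118 of the 3124 genes and 11 of the 361, the highest peak was overlapped by a peak of the other library that lay beyond 1 kb.

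The higher and wider a WT peak was, the more often DKO had a peak there. In the lowest decile of WT fold enrichment 25.1% of the peaks were shared (interval 22.5 to 27.9), and in the highest decile 84.8% (82.4 to 86.9). By width the shares were 16.9% in the narrowest decile and 83.4% in the widest. The overlap rule favours wide peaks and the q threshold favours high ones, and the part of either in these shares was not tested. From the DKO side, 56.5% of the lowest decile by fold enrichment and 96.9% of the highest overlapped a WT peak. Peaks found in WT without DKO had a median WT fold enrichment of 4.05 and a median width of 401 bases, against 4.92 and 676 bases for shared WT peaks. Peaks found in DKO without WT had a median DKO fold enrichment of 3.52 and a median width of 302 bases, against 4.01 and 469 bases for shared DKO peaks. In each library the unshared peaks were therefore lower and narrower than the shared ones, but the quartiles of the classes overlapped, as WT peaks without DKO ran from 3.57 to 4.67 and shared WT peaks from 4.20 to 5.76.

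**Figure D1:**
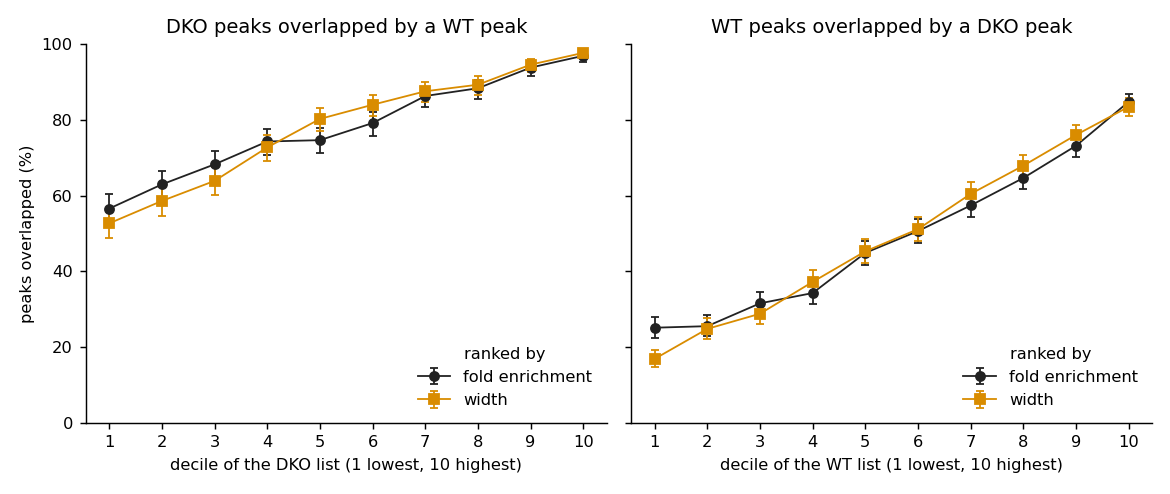
Share of peaks overlapped by a peak of the other library (%), for deciles of the DKO list (left) and the WT list (right) ranked by fold enrichment (circles) or width (squares), with Wilson 95% intervals of counting error. The WT shares climb to 84.8% by fold enrichment and 83.4% by width, and the DKO shares start at 56.5% by fold enrichment.

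Where 1 DKO peak met 1 WT peak and no other, which was so for 4561 pairs, the DKO peak was usually the narrower. The DKO peaks of these pairs had a median width of 477 bases (quartiles 336 and 691) and the WT peaks 665 (quartiles 458 and 890), and the DKO peak was the wider in 1311 pairs (28.7%). The summits lay a median of 111 bases apart (quartiles 42 and 253), and 59.3% lay within 150 bases. A further 209 WT peaks were split over at least 2 DKO peaks. Fold enrichment in DKO and WT went together only loosely over the pairs (Spearman's rho 0.43, a description over neighbouring peaks of the same libraries). At the edge of the overlap rule, peaks at Uap1, Khnyn, and Pdcd10 with Serpini1 counted as shared with overlaps of 1, 2 and 4 bases, while those at Kirrel and Chid1, which touched without overlapping, and at Rab3ip, with 1 base between, did not.

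Shared peaks lay mostly at gene ends, and peaks in DKO without WT did so less. In the DKO without WT class 722 of 1406 lay within 1 kb of a gene end (51.4%, interval 48.7 to 54.0), against 3968 of 5012 shared DKO peaks (79.2%, 78.0 to 80.3). In the WT list 3950 of 4837 shared peaks did so (81.7%, 80.5 to 82.7) and 3618 of 4999 peaks without DKO (72.4%, 71.1 to 73.6). Peaks outside protein-coding genes, the only genes used for these positions, made up 20.6% of the DKO without WT class and 5.63% of the shared DKO peaks. They made up 5.77% of the shared WT peaks and 7.94% of the WT without DKO class. Peaks at the ends of at least 2 genes, such as divergent pairs, made up 8.75% of the DKO without WT class and 19.4% of the shared DKO peaks. They made up 19.99% of the shared WT peaks and 11.5% of the WT without DKO class. The share of WT peaks with a DKO peak was 52.2% at gene ends, 38.2% inside genes away from their ends and 41.3% outside genes. The shares by height were as follows: in the lowest tercile of WT fold enrichment the shares were 28.6% at gene ends, 24.4% inside genes and 25.9% outside them, in the middle tercile 49.7% at gene ends, 39.0% inside genes and 42.8% outside them, and in the highest tercile 73.7% at gene ends, 65.1% inside genes and 67.6% outside them.

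Many of the DKO peaks without a WT overlap sat beside a WT peak. Of the 1406, 415 (29.5%) lay within 500 bases of a WT peak and 587 (41.7%) within 1 kb, and the median distance was 5549.5 bases. Of the 722 at a gene end, 407 (56.4%) were at a gene that WT marked with another peak, so 315 were left at genes with no WT peak. WT peaks without DKO stood further off, with 9.82% within 500 bases of a DKO peak and a median distance of 44875 bases. Of the 3618 at a gene end, 713 (19.7%) were at a gene that DKO marked with another peak.

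Summits followed the start site of genes. Among shared peaks with a summit within 1000 bases of a RefSeq start site, the DKO summit lay a median of 380 bases downstream and the WT summit 331, with 84.5% of 3320 DKO summits and 85.6% of 3303 WT summits downstream. Peaks in WT without DKO had their summits a median of 269 bases downstream, and 78.4% of 3039 were downstream. In the DKO without WT class 55.2% of 580 summits were downstream (interval 51.1 to 59.2). That class divides by gene: where the gene was marked in both libraries, so that a WT peak already lay at the gene, 43.8% of 292 summits were downstream, and where the gene was marked in DKO without WT, 67.8% of 230 were (interval 61.5 to 73.5), at a median of 333 bases. A peak of this class cannot overlap a WT peak, and the part of that rule in the 43.8% was not tested.

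**Figure D2:**
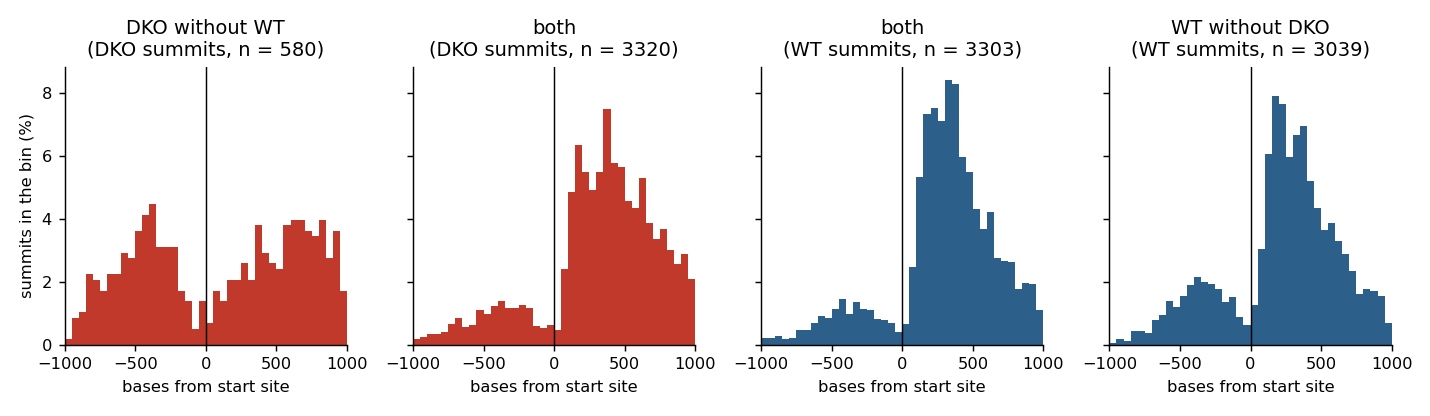
Position of peak summits around the nearest RefSeq start site (bases, positive downstream) as the percent of summits in bins of 50 bases, for peaks in DKO without WT, shared peaks by their DKO summits, shared peaks by their WT summits, and peaks in WT without DKO. Shared summits pile up downstream (84.5% in DKO, 85.6% in WT), and those in DKO without WT lie on both sides (55.2% downstream).

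The highest shared peaks of all were not at promoters. The 10 highest DKO peaks with a WT overlap had fold enrichments of 12.9 to 34.4, and all but the one at Lars2, the mitochondrial leucyl-tRNA synthetase, lay away from protein-coding gene ends. The Lars2 peak lay at the end of its gene away from the start site. At chr6:103649060-103649291 the fold enrichment was 34.4 in DKO and 33.6 in WT. All 10 also overlapped a WDR5 or P53 peak called in DKO, where both proteins are targeted, and what they hold was not tested. Such overlaps were few in the lists: 2.81% of shared DKO peaks, 1.78% of DKO peaks without WT and 0.80% of WT peaks without DKO.

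Below Lars2, the highest shared peaks at gene ends in DKO had fold enrichments of 7.66 to 8.69. Babam1 had 8.69 in DKO and 11.1 in WT. Slc35b1, an endoplasmic reticulum nucleotide transporter, had 8.21 in DKO, Mak16, a ribosome biogenesis factor, 8.10, Trmt10c, of mitochondrial RNase P, 8.06, and Prmt5, an arginine methyltransferase, 8.0. Ing2, whose PHD finger binds H3K4me3, had 7.99, Szrd1 7.91, the predicted gene LOC100504180 7.91, and Psmc6, a proteasome ATPase, 7.66. Among these, the Ing2 and LOC100504180 peaks also overlapped a WDR5 or P53 peak called in DKO, and the others did not. What those peaks hold was not tested.

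The 10 highest WT peaks at gene ends with no DKO overlap all stood within the highest decile of the WT list, which begins at 6.14. Emc7 had a WT fold enrichment of 9.25, Chpt1, of phosphatidylcholine synthesis, 8.31, the Dhcr7 and Nadsyn1 peak 8.26, Ralgapa2, a Ral GTPase-activating subunit, 7.94, and Ccp110, a centriole cap protein, 7.72. Cadps, of vesicle release, had 7.60, Tmem87b 7.57, Zfp933, a zinc finger gene, 7.54, and Cars, the cysteinyl-tRNA synthetase, 7.54. The nearest DKO peak to the Emc7 peak was 75165 bases away and to the Dhcr7 peak 273496 bases. Ndufb6, of respiratory complex I, had a WT peak of 7.41 with a DKO peak 406 bases off, so the peak was unshared while the gene was marked in both. The widest peaks in WT without DKO were chr19:5800188-5802460 (2273 bases) and those at Cachd1 (2203 bases) and Foxp4 (1908 bases).

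The 10 highest DKO peaks at gene ends with no WT overlap had DKO fold enrichments of 4.93 to 5.60. Gm20385, a predicted gene, had a DKO fold enrichment of 5.60, and the peak between Surf1, a cytochrome oxidase assembly factor, and Surf2 had 5.48. Sord, sorbitol dehydrogenase, had 5.37 but also carried a WT peak of 4.27 that lay 258 bases away. Zfp980 had 5.24, the start shared by Htd2 and Rpp14, of mitochondrial fatty acid synthesis and RNase P, 5.08, Tmem41a 5.08, and Psma8, a proteasome subunit of germ cells, 5.08. Zbtb3 had 5.07, Fanca, of the Fanconi anaemia repair pathway, 4.94, and the Cage1 and Riok1 peak 4.93. Apart from Sord, none of these genes had a WT peak within 1 kb.

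Genes marked in KO, which the classes did not use, were mostly genes marked in both DKO and WT. The KO library, with 918 peaks from 22.3 M fragments, marked 697 of the WT-marked genes (8.98%). It marked 657 of the 4638 genes marked in both DKO and WT (14.2%, interval 13.2 to 15.2), 40 of the 3124 marked in WT without DKO (1.28%, 0.94 to 1.74) and 1 of the 361 marked in DKO without WT (0.28%). The genes shared by DKO and WT had a median WT fold enrichment of 5.06, against 4.27 for those in WT without DKO, and the part of height in the KO shares was not tested.

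Genes for making, folding and degrading proteins had the highest shares among the lists with at least 5 WT-marked members. Among 65 WT-marked ribosomal protein genes 58 were also marked in DKO (89.2%, interval 79.4 to 94.7), beside 59.8% of all WT-marked genes. Their median WT fold enrichment of 4.36 was below the 4.72 of all WT-marked genes, and in the decile of genes by height that holds 4.36 the share marked in DKO was 55.0%. Rps3 had 6.59 in DKO and 6.17 in WT and Rps13 5.23 in DKO and 6.52 in WT. The 7 without a DKO peak were Rps2, Rpl39, Rpl13a, Rpl13, Rps4x, Rps19 and Rpl22, with WT values of 2.97 to 4.39, and the WT peak of Rps2 was overlapped by a DKO peak beyond 1 kb from the gene. A further 4 of the 12 ribosomal protein genes unmarked in WT had a DKO peak, beside 2.56% of all genes unmarked in WT: Rplp1 (3.68), Rps15a (3.43), Rpl10a (3.24) and Rps28 (3.09).

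Translation factor genes were marked in DKO in 37 of 41 WT-marked cases (90.2%, interval 77.5 to 96.1). Gspt1, the release factor eRF3, had 6.54 in DKO and 6.15 in WT, and Eif5 had 4.83 in DKO and 7.43 in WT. The 4 without a DKO peak were Eif3m, Eif5b, Eif3g and Eef1a1. Of the aminoacyl-tRNA synthetase genes 17 of 18 were marked in both, the exception being Cars, and Kars had 5.66 in DKO and 6.99 in WT. The proteasome and chaperonin genes gave 33 of 38 (86.8%), with Psmc6 at 7.66 in DKO and 9.74 in WT and Psmd4 at 6.16 in DKO and 9.19 in WT. Splicing factor genes gave 41 of 50 (82.0%), with Snrpd1, a core snRNP protein, at 6.99 in DKO and 6.94 in WT. Prpf3, Snrnp70 and Srsf1 were marked in DKO without WT, at 3.78, 3.33 and 3.22. By median WT fold enrichment, translation factor genes (5.10) fell in a decile of genes where 67.1% were marked in DKO. Synthetase genes (5.35) and proteasome and chaperonin genes (5.70) fell in a decile with 74.5%, and splicing factor genes (4.82) in one with 64.9%. The part of height in these shares was not tested.

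Cell cycle and mitochondrial genes lay above the share of all genes too. Of 57 WT-marked cell cycle and replication genes 47 were marked in DKO (82.5%, interval 70.6 to 90.2), with Mcm10, a replication initiation factor, at 6.30 in DKO and 7.29 in WT. Rfc5, Rrm1 and Rb1 were among the 10 without a DKO peak, and Ccne2, cyclin E2, had a peak in DKO (3.83) and none in WT. Oxidative phosphorylation subunit genes gave 46 of 60 (76.7%) and mitochondrial ribosomal protein genes 51 of 68 (75%). Mrpl35 had 5.08 in DKO and 10.1 in WT, and Mrpl55, at 7.39 in WT, had no DKO peak. Glycolysis genes were marked in DKO in 9 of 14 cases (64.3%), and Gpi1, Pgk1, Ldhb and Gapdh had WT peaks of 2.99 to 5.10 and none in DKO. Aldoc (5.89 in WT) was not counted as marked in DKO because the DKO peak that overlaps its WT peak lies beyond 1 kb from the gene. The median WT fold enrichments of cell cycle genes (4.90) and glycolysis genes (4.81) fell in a decile of genes where 64.9% were marked in DKO. That of oxidative phosphorylation genes (5.37) fell in one with 74.5%, close to their own 76.7%, and that of mitochondrial ribosomal protein genes (5.25) in one with 67.1%. The part of height was not tested.

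Cholesterol synthesis genes had a lower share than all WT-marked genes, with an interval that still reached the 59.8%. DKO marked 6 of 16 WT-marked members (37.5%, interval 18.5 to 61.4). Their WT fold enrichments ran from 3.09 to 8.33. The median of 4.73 lies in a decile of genes where 64.9% were marked in DKO, and the part of height was not tested. Hmgcs1 (5.15 in WT), which makes HMG-CoA, and Srebf2 (4.57), a transcription factor of the pathway, had no DKO peak, nor had Cyp51, Idi1, Mvk, Sc5d and Lss, at 3.09 to 4.85 in WT, or Dhcr7. Msmo1 was marked in both at 5.86 in DKO and 8.33 in WT, and Fdps at 3.74 in DKO and 6.50 in WT. None of the 16 had a KO peak.

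Signalling and anterior neural genes had shares below the 59.8% of all WT-marked genes. Among signalling ligands, receptors and antagonists 13 of 41 WT-marked genes were marked in DKO (31.7%, interval 19.6 to 47.0), in a list whose median WT fold enrichment was 4.44, in a decile of genes where 55.0% were marked in DKO. Smad4, the common SMAD, had 4.19 in DKO and 5.89 in WT, and Dusp6, an ERK phosphatase, 5.37 in DKO and 4.90 in WT. The BMP effector gene Smad1 (5.19 in WT) and Spry1, an antagonist of receptor tyrosine kinases (5.16), had no DKO peak. Ctnnb1, which encodes β-catenin (5.48 in WT), and Apc (5.13) were counted with them, but a DKO peak beyond 1 kb from the gene overlapped the WT peak of each. Of the 10 WT-marked anterior neural and eye field genes DKO marked 2 (20%, interval 5.67 to 51.0), in a list whose median WT fold enrichment of 3.88 lies in a decile where 39.0% of genes were marked in DKO. With a window of 5 kb DKO marked 7 of 13 (53.8%). The 2 were Otx2 (3.08 in DKO, 3.97 in WT) and Tcf7l1 (4.03 in DKO, 4.75 in WT). Otx1, Hes1, Gbx2, Zic5, Irx3, Zic2, Sox11 and Six6 were marked in WT at 3.07 to 4.19 and not in DKO, and Zic5, Zic2 and Sox11 had a DKO peak within 1128 bases of the WT peak. Zic2 was also marked in KO, at 6.01. No H3K4me3 library had a peak at Rax, where the reporter sits.

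Markers of other cell types that the embryoid bodies could hold were also counted, beside 4999 marked in DKO and 7762 in WT of all 21887 genes. Mesoderm and endoderm genes had 0 of 37 members marked in DKO and 1 in WT, Eomes at 3.37. Extraembryonic and trophoblast markers had 2 of 25 in DKO, Lamc1 and Krt18, and 6 in WT. Fibroblast feeder markers had 0 of 21 in DKO and 3 in WT, Fn1, Thy1 and Col5a1. Homeobox developmental regulators had 1 of 63 in DKO and 3 in WT. Imprinted genes had 1 of 27 in DKO, Ube3a, and 5 in WT. Loss of a peak at such genes cannot be told apart here from fewer cells of a type.

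Pluripotency genes were marked in DKO in 15 of 19 WT-marked cases (78.9%, interval 56.7 to 91.5). With the highest 50% of each list this became 4 of 13, below the share of all genes. Pou5f1, which encodes OCT4, had 4.93 in DKO and 4.85 in WT, Lin28a 4.86 in DKO and 4.68 in WT, and Gdf3, a TGF-β family ligand, 6.59 in DKO and 5.65 in WT. Sox2 had 2.91 in DKO and 3.69 in WT. Klf4 (5.97), Nodal (5.79), Tfcp2l1 (5.05) and Fgf4 (3.59) were marked in WT without DKO, where Fgf4 had a DKO peak 257 bases from its WT peak and Klf4 one 1816 bases away. Nanog had a peak in DKO (4.28) and none in WT, the nearest WT peak being 32979 bases away.

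**Figure D3:**
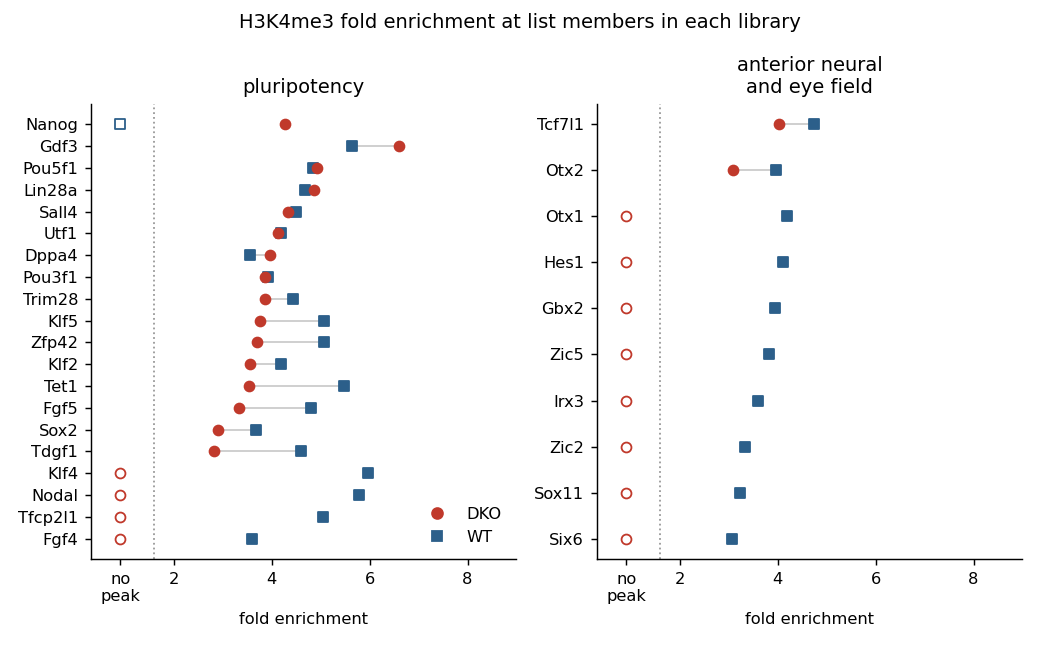
Fold enrichment over local background of the highest H3K4me3 peak within 1 kb of a gene end in DKO (circles) and WT (squares), for every marked member of the lists of pluripotency and anterior neural genes. Open symbols left of the dotted line mark no peak, and the libraries are not scaled to each other; DKO has a peak at 16 pluripotency genes and 2 anterior neural genes.

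P53 target genes were marked in DKO about as often as all genes, in 16 of 27 WT-marked cases (59.3%, interval 40.7 to 75.5). Sesn2, a stress-induced growth inhibitor, had 5.57 in DKO and 7.08 in WT, and Gadd45a 4.25 in DKO and 5.79 in WT. Apaf1 (6.88 in WT), Phlda3 (4.53) and Pmaip1 (4.21) had no DKO peak, and Apaf1 and Phlda3 had one in KO, at 5.07 and 4.36. Tigar, a regulator of glycolysis, was marked in DKO (3.92) and not in WT. Under 4 of the 8 alternative settings the share crossed to the other side of that of all WT-marked genes.

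Genes for the H3K4 methyltransferase complexes and demethylases had shares whose intervals contain the 59.8% of all WT-marked genes. Of 21 WT-marked MLL and SET1 complex genes 15 were marked in DKO (71.4%, interval 50.04 to 86.2). Rbbp5 had 5.08 in DKO and 5.76 in WT, Setd1a 4.21 in DKO and 6.60 in WT, and Kmt2a 3.63 in DKO and 5.13 in WT. Kmt2d (4.37 in WT) and Psip1 (3.88) had no DKO peak, and Kat8, an acetyltransferase that works with WDR5, had one in DKO (3.22) and none in WT. The list thus also holds Kat8 and Kansl genes of its acetyltransferase complex, and Kansl2 (3.64 in WT) and Kansl3 (3.36) had no DKO peak. Wdr5 itself had a peak of 6.85 in DKO, 4.66 in KO and 8.07 in WT, and Trp53 one of 3.36 in DKO, 4.04 in KO and 3.92 in WT, which does not check either deletion. Of 7 WT-marked H3K4 demethylase genes 3 were marked in DKO (42.9%, interval 15.8 to 74.95), Kdm1a, Kdm5a and Kdm5b, while Kdm5c, Kdm1b, Rcor1 and Phf8 were not. Polycomb and DNA methylation genes gave 16 of 25 (64.0%), with Suz12 at 6.14 in DKO and 6.19 in WT, and Rybp marked in DKO (4.0) and not in WT.

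**Figure D4:**
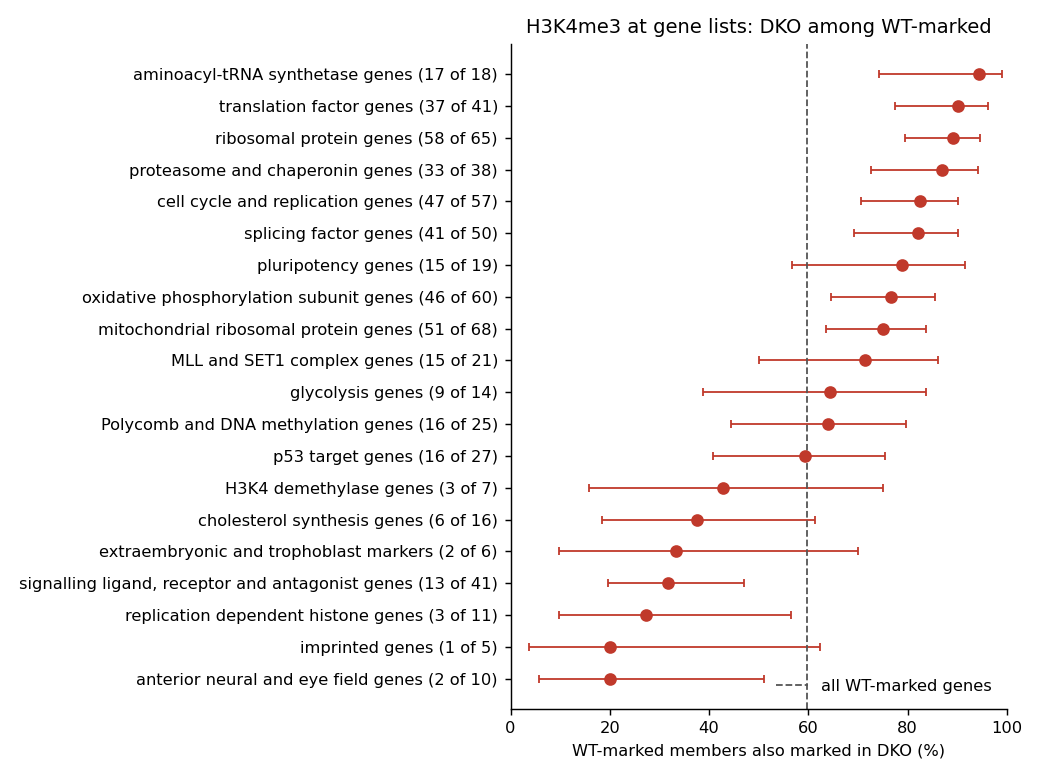
Percent of WT-marked members of each gene list that were also marked in DKO (points) with Wilson 95% intervals of counting error, for lists with at least 5 WT-marked members; counts stand beside the names and the dashed line is the 59.8% of all WT-marked genes. Translation and proteasome lists sit to the right of the line, and signalling and anterior neural lists to its left.

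Replication-dependent histone genes, whose short intronless copies lie in clusters, were counted in both directions. Of 11 WT-marked members 3 were marked in DKO, H3c14, H4c8 and H3c8 (27.3%, interval 9.75 to 56.6), below the 59.8% of all WT-marked genes but near the 29.5% of the lowest decile by height, in which the list's median WT fold enrichment of 3.30 lies. In the other direction, 12 of the 46 unmarked in WT had a DKO peak (26.1%), beside 2.56% of all genes unmarked in WT. These 12 rested on 9 peaks, with fold enrichments of 3.17 to 3.85, and 10 of the 12 lie in the cluster on chromosome 13. H3c13 (3.85), H3c3 (3.74), H2ac18 (3.73) and H2ac10 (3.73) were the highest. H4c14 (4.59) and H1f5 (4.42) were the highest marked in WT without DKO. The copies are nearly alike in sequence, so how reads were shared between them makes the gene that carries a peak uncertain.

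Promoters of the classes differed in sequence as well. CCGGAAG was found in 20.5% of 288 promoters of genes marked in DKO without WT (interval 16.2 to 25.5), 26.0% of 3842 marked in both (24.6 to 27.4), 16.5% of 2491 marked in WT without DKO (15.1 to 18.01), 5.66% of those marked in neither and 11.9% of all 17492 promoters. It is present in the Babam1, Emc7 and Dhcr7 windows printed above and absent from those of Eif5, Nanog and H3c13. In the lowest tercile of WT fold enrichment 50.1% of genes with the motif (interval 45.2 to 55.1) and 37.5% without (35.2 to 39.8) were marked in DKO. In the middle tercile the shares were 71.1% (66.8 to 75.1) and 58.4% (56.0 to 60.7). In the highest tercile they were 84.5% (81.3 to 87.2) and 78.3% (76.2 to 80.2). Heights still vary within a tercile, and the part of height in the motif difference was not tested. GCGCATG was found in 6.94% of promoters marked in DKO without WT, 9.42% of those in both, 5.98% of those in WT without DKO and 4.88% of all. CACGTG was found in 13.9% in DKO without WT, 11.8% in both, 8.91% in WT without DKO and 7.91% of all.

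Base composition differed more between marked and unmarked genes than between the marked classes. The median CpG content, observed over expected, was 0.76 in DKO without WT, 0.83 in both, 0.77 in WT without DKO and 0.31 in neither, with 0.58 over all promoters. GGGCGG was in 60.8% of promoters in DKO without WT, 69.7% in both, 70.3% in WT without DKO and 46.3% of all. TATAAA was in 10.1% in DKO without WT, 5.60% in both, 5.94% in WT without DKO and 13.3% of all. CCAAT varied little, with 40.6% in DKO without WT, 41.2% in both, 39.0% in WT without DKO and 39.2% of all. The Nanog window had a CpG content of 0.19 and none of the motifs, and the H3c13 window had 2 CCAAT boxes and a GC content of 42.0%, beside a median of 59.7% in the DKO without WT class.

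Chromosome 8 stood apart from the other autosomes. It had 526 DKO peaks and 607 WT peaks, a ratio of 0.87, against 0.59 to 0.72 on the other 18 autosomes. Of its DKO peaks 157 had no WT overlap (29.8%), against 34 to 117 peaks (17.5% to 27.1%) per other autosome. The local background, implied by a peak's pileup and fold enrichment, had a median of 7.88 fragments on chromosome 8 in DKO against 5.78 to 6.20 on the other autosomes, and 6.25 in WT against 5.32 to 5.89. In KO it was 4.86 against 3.35 to 4.17, so the background was the highest on chromosome 8 in all 3 libraries. A cluster at 19 to 21 Mb held 40 DKO peaks, 27 of them without WT, and 16 WT peaks, none of the 27 at a gene end and with values of up to 9.81 in DKO. It supplied 7 of the 10 highest peaks in DKO without WT, and on the rest of the chromosome 130 of 486 DKO peaks had no WT overlap (26.7%). More copies of the chromosome and mapping in a repeated region cannot be told apart from more marking with these files. Without chromosome 8, 59.1% of WT-marked genes were marked in DKO and 337 genes were marked in DKO without WT.

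Chromosome X had few DKO peaks, 51 against 138 in WT, and 23.9% of the WT peaks there had a DKO peak. The local background was at its floor for 40 of the 51 DKO peaks and 107 of the 138 WT peaks, and the part of copy number in the counts was not tested.

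**Figure D5:**
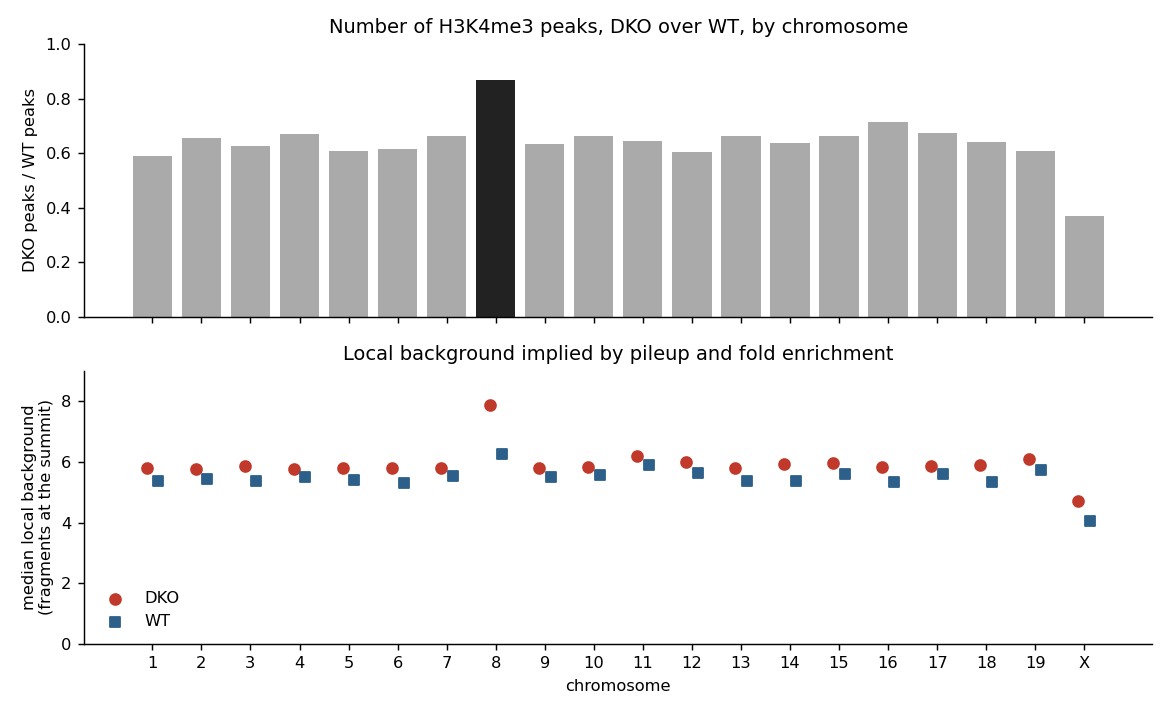
Number of DKO peaks divided by the number of WT peaks on each chromosome (top, chromosome 8 in black), and the median local background in fragments at the summits of DKO peaks (circles) and WT peaks (squares) (bottom). Chromosome 8 is highest in the ratio (0.87) and in the background of DKO (7.88) and WT (6.25), and chromosome X is lowest among those drawn.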

How the data were processed

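Per the file headers, MACS2 (version string 2.1.0.20150731) made both lists from fragment pairs, with no control sample, keeping peaks that passed a q threshold of 0.01 over a background drawn from 10000 bases around each site, and counting no more than 2 duplicate fragments at a position. The submitters' processing notes name build mm10, Bowtie2, SAMtools 1.5, bedtools, HOMER 4.10 and MACS2 2.1.0. The pileup is the coverage signal at the summit in fragments, per the file headers. The deposited −log10 p and −log10 q values and the fold enrichment, a ratio of pileup to local background, are the authors' own values for each peak and served here to rank or select peaks inside their own list.

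From these lists, overlaps, distances to gene ends and shares with Wilson intervals were computed with Python 3.11.15, numpy 2.4.6, pandas 2.3.3 and scipy 1.17.1. The overlap classes and the 1 kb window were checked on simulated peaks, and the other steps were not. Each list lost 3 peaks that lay off the chromosomes used. Local background was computed as (pileup + 1) / fold enrichment − 1. Gene spans of 21887 protein-coding genes and 17492 promoters came from RefSeq tables of GRCm38.p6. Exons and introns were not analysed here, and strand was known only for genes with a promoter entry.

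The members and the 23 gene lists were chosen with earlier results of these data known. Of 1001 list entries 999 matched, 57 of them by a synonym. The text names, per class, the 10 highest peaks at gene ends and the 3 widest, the peaks at the edge of the overlap rule, and the members of each list ranked by WT fold enrichment, with Sox2, H3c3 and some members outside the 8 highest of their list named after their values were seen. Promoters printed are those of the highest genes of a class or list whose peak lies within 1 kb of the printed start site, a condition added after the data were seen. Alternatives changed the overlap, the q and rank thresholds, the window and the peaks or chromosomes kept. Some list members are counted but not reported by name here.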

Additional observations from a re-analysis of the deposited data

How the results depend on the processing

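No paired analysis was possible because H3K4me3 has 1 library per genotype, so no replicate could be left out either. The differences among the main results kept their sign under every alternative, while shares and counts cannot change sign. Of the main results 54 of 102 values stayed within the error or ratio set for them, as did 157 of 180 values of the gene lists. The main values that moved follow. The share of WT peaks with a DKO peak was 46.1% with an overlap of 50% of the shorter peak, 54.2% with peaks within 500 bases counted as shared, 43.0% at a −log10 q of at least 5, 44.5% with the highest 50% of each list and 60.6% with lists of equal length. The share of DKO peaks with a WT peak was 72.9%, 84.6%, 81.4%, 68.9% and 63.5% under the same 5 settings. The share within 1 kb of a gene end in the DKO without WT class was 55.1%, 46.5%, 58.1%, 67.2% and 58.3% under them. The difference in median WT fold enrichment, WT without DKO minus shared, was -0.92, -0.74, -0.70, -0.53 and -0.57, against -0.87. The span of shares between the highest and lowest decile of WT fold enrichment was 63.8, 49.1, 49.1, 49.8 and 51.6 percentage points, against 59.7. The difference in median DKO fold enrichment, DKO without WT minus shared, was -0.42 at 500 bases, -0.30 at the −log10 q limit and -0.34 with the highest 50%, against -0.50. The share of WT-marked genes also marked in DKO was 50.02% at the −log10 q limit, 48.5% with the highest 50%, 67.3% with lists of equal length and 64.0% with a window of 5 kb. The number of genes marked in DKO without WT was 651 with the highest 50% and 993 with lists of equal length, against 361. At gene ends lay 77.8% of WT peaks without DKO at the −log10 q limit, 81.8% with the highest 50%, 78.1% with lists of equal length, 84.8% with a window of 5 kb and 66.9% with start sites only, and 84.1% of shared WT peaks with the highest 50%, 84.3% with lists of equal length, 90.2% with 5 kb, 74.3% with start sites only and 83.0% without peaks at WDR5 or P53 peaks called in DKO. In the DKO without WT class 71.4% lay at gene ends with a window of 5 kb and 47.8% with start sites only. The difference in promoters with CCGGAAG, shared minus WT without DKO, was 7.31 percentage points at the −log10 q limit and 6.16 with the highest 50%, against 9.50. The causes of these shifts were not tested, other than that a stricter limit leaves fewer peaks and a wider window reaches more genes. Leaving out chromosome 8 or chromosome X was chosen after the data were seen and moved none of the main results by more than its error. Of the lists, 6 crossed to the other side of the share of all WT-marked genes: p53 targets under 4 settings, the pluripotency list with the highest 50% (4 of 13) and start sites only (9 of 15), the Polycomb list at the −log10 q limit and with the highest 50%, glycolysis with the highest 50% (4 of 10) and lists of equal length, the anterior neural list with the highest 50% (1 of 1), and the homeobox list with lists of equal length (1 of 1). The number of fragments limits which low peaks can be called: the lowest peaks had 16 fragments at the summit in DKO and 15 in WT.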

Other observations

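Away from protein-coding gene ends, lncRNA gene ends held 10.96% of 684 peaks in DKO without WT, 15.2% of 1044 shared DKO peaks and 15.6% of 1381 peaks in WT without DKO. The microRNA cluster of Mir17hg, which gives miR-17, miR-18, miR-19a, miR-20a, miR-19b-1 and miR-92-1 and is known to promote proliferation, had a DKO peak of 864 bases (fold enrichment 4.52, chr14:115042787-115043650) and no WT peak within 1882521 bases. Mir130a lay at a DKO peak of 5.13 with the nearest WT peak 400 bases away, and the tRNA gene n-TEctc9 at one of 5.43 with a WT peak 7946 bases away. These genes were picked after their values were seen, from the highest unshared DKO peaks at noncoding genes.

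Of 397 genes with a Zfp symbol, most of them zinc finger genes and many in near-identical clusters, 120 of 209 WT-marked ones were also marked in DKO (57.4%), beside 59.8% of all WT-marked genes. Of the 188 unmarked in WT, 14 were marked in DKO (7.45%), beside 2.56% of all genes unmarked in WT. Peaks at near-identical copies are uncertain.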
